A study of Arabidopsis thaliana with 16 samples.

Results

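Across the volatile and feeding experiments 5 genes of *A. thaliana* were followed. They were AT4G13180 of the short-chain dehydrogenase family (probe set 254759_at), the TolB-related gene AT4G01870 (255543_at), AT2G41380 of a methyltransferase family (266368_at), and the multidrug transporter genes AT2G04050 (263402_at) and AT2G04070 (263401_at). They make up 5 of the 22746 probe sets tested, and each has 1 probe set that matches no other gene. They were picked by name because they respond to foreign chemicals or were higher with volatiles in earlier results of these arrays. A gene list for chemical stimuli that the study drew up on the 48 h arrays already held all of them except AT4G01870. Their values with volatiles are therefore given as a description, without a test. The rule names the volatile response and not the feeding response, and the feeding experiment shares no array with the volatile experiment, so the comparison of fed with healthy plants was tested, although feeding results were also known when the genes were picked.

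All plants were wild-type Col-0 *A. thaliana*, 4 weeks old. Every sample held tissue of at least 8 plants and was hybridized to 1 ATH1 array. All samples were labelled as leaves, but their titles say seedlings. The paper describes receivers frozen after exposure without naming a part of the plant, and selected leaves in the feeding experiment. Receivers stood above Lima bean plants in a glass jar with a slow air stream. Those of the volatile groups shared it with Lima beans damaged by larvae of the leafminer *Liriomyza huidobrensis*, for 24 h (2 samples) or 48 h (3 samples), and those of the control groups with healthy Lima beans for 24 h (2 samples) or 48 h (3 samples). In the feeding experiment 3 samples of leaves mined by the same species were set against 3 samples of healthy plants. The mined leaves were taken when the larvae had reached their second instar, a time not matched to the 24 h and 48 h of volatiles. The samples of a group pool different plants, but separate growth is not described, so a p-value here speaks of the spread among these samples, which may be technical. In pooled tissue, fewer cells expressing a gene and less RNA in each of them cannot be told apart.

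Values are MAS5 signals on a linear scale, with values below 1 set to 1 before log2 values were taken. Array medians lay between 19.2 and 30.3, and over all probe sets the change had a median (log2) of 0.31 at 24 h, 0.07 at 48 h and 0.14 with feeding, which are the shifts to read the changes against. Quantile normalization brings these to 0, 0 and -0.06. The number of arrays limits the precision. Of the leaf markers, Rubisco activase (RCA) was the 1 of 6 with a named probe set. Its signals were 2301 to 3211 in the volatile experiment, controls included, and 3985 to 4836 in the feeding experiment. The root list has a named probe set for 1 of its 9 genes, and the flower list for 0 of its 4. That root gene, PYK10, a beta-glucosidase of root endoplasmic reticulum bodies, had signals of 71.7 to 116 in healthy plants, 513 to 1054 in fed plants and 697 to 1491 in the volatile experiment. It is given below beside the results it moves with.

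Plants take up foreign organic molecules and their own reactive lipid fragments and dispose of them in steps. Reductases and oxidases first alter the reactive group, transferases then attach glutathione, sugar or a methyl group, and membrane carriers finally move the product out of the cytosol. Short-chain dehydrogenases use NAD(P)H to reduce carbonyl groups, the methyltransferase family to which AT2G41380 belongs uses S-adenosylmethionine, and MATE transporters (multidrug and toxic compound extrusion) exchange substrates for protons or sodium ions. The TolB domain is a beta-propeller known from a bacterial periplasmic protein, and the biochemical role of AT4G01870 is not stated in the sources used here. Many genes of this kind are activated in leaves by TGA transcription factors together with the GRAS protein SCL14. AT4G13180 and AT4G01870 lie on chromosome 4 and the other genes on chromosome 2, where AT2G04050 and AT2G04070 lie close together in a group of MATE genes that runs from DTX1, a known carrier of plant alkaloids and other foreign compounds, to AT2G04100. Transcripts of such related genes can bind the same probes, which was not tested.

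**Figure D1:**
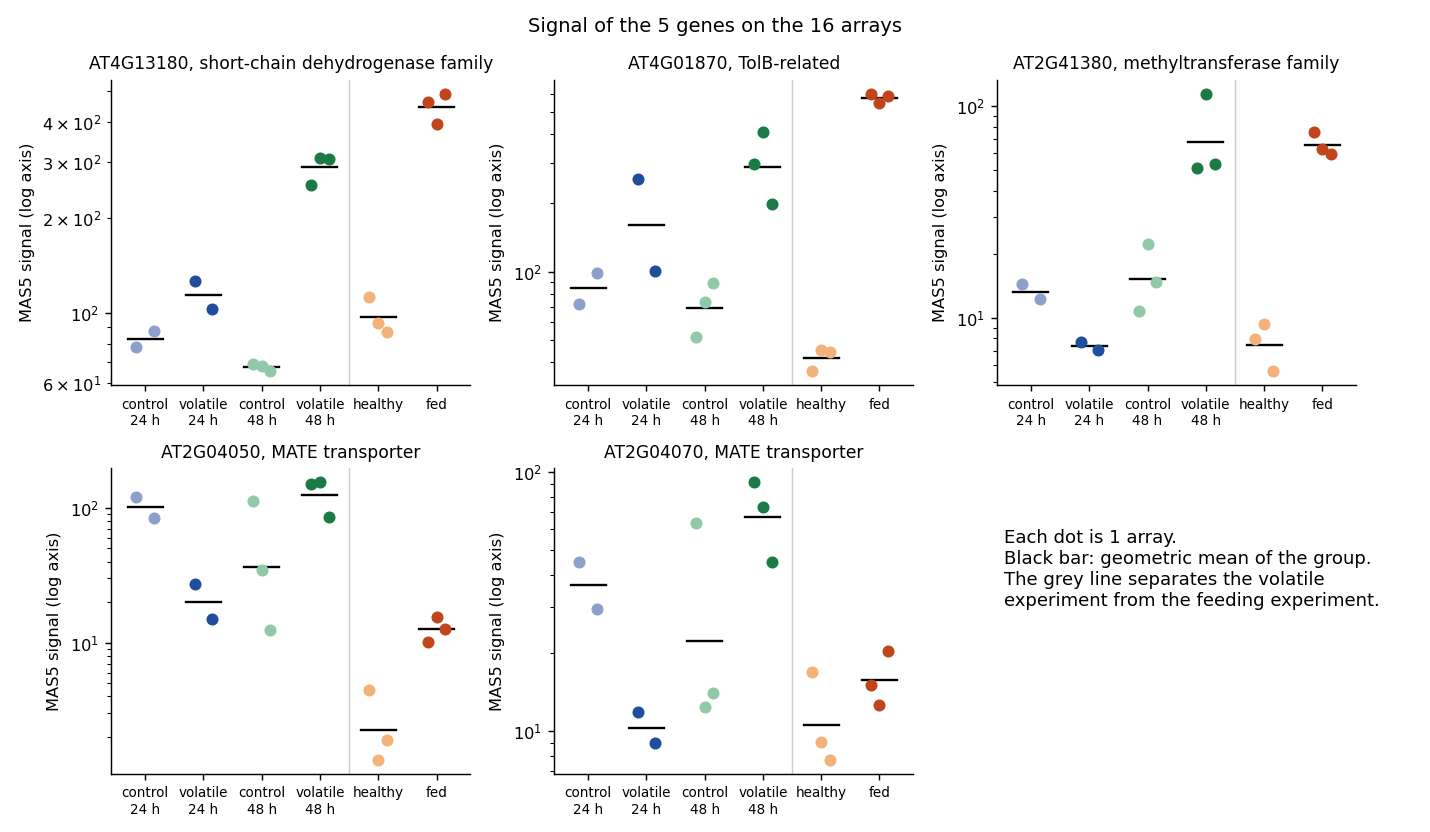
MAS5 signal (log axis) of the 5 genes in the 6 groups, with 1 dot per array and a bar at the geometric mean. AT4G13180, AT4G01870 and AT2G41380 stand highest after 48 h of volatiles and in fed plants, whereas AT2G04050 and AT2G04070 are highest in the 48 h volatile plants and the 24 h controls, and some of their 24 h volatile and 48 h control samples lie within the range of the feeding experiment.

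Leafminer feeding raised 4 of the 5 genes in the leaves of *A. thaliana*: the dehydrogenase AT4G13180, the TolB-related AT4G01870, the methyltransferase AT2G41380 and the transporter AT2G04050. The related AT2G04070 did not pass. A gene was called when limma's Benjamini-Hochberg adjusted p over all 22746 probe sets was at most 0.05 and the change was at least 2-fold. By this rule feeding called 12.8% of all probe sets up and 6.49% down. In the same 4 genes every fed sample was above every healthy sample, as in 27.1% of all probe sets, and the reverse held for 0 of the 5 and for 15.3% of all. Among calls of all probe sets 66.3% were up, and 48.3% after quantile normalization, with 4 of the 5 genes called in either case. PYK10, the root marker, was also higher in fed than in healthy plants (513 to 1054 against 71.7 to 116), beside all of the feeding results, and its part in them was not tested.

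AT4G01870 had the largest response to feeding of the 5. Its signal was 36.6, 45.4 and 44.4 in the healthy samples. In the fed samples it was 603, 546 and 590. The fed samples thus lay close together and far above the healthy ones. The log2 fold change was 3.79 (SE 0.33, adjusted p = 4.8e-06), a 13.8-fold difference, and 98.5% of all probe sets had a smaller value.

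AT2G41380, the methyltransferase gene, moved from a weak to a moderate signal. Healthy samples gave 7.92, 9.34 and 5.60, below the array medians. Fed samples gave 75.9, 62.9 and 59.7, above the medians of their arrays. Fed plants were 3.14 higher on the log2 scale (SE 0.34, adjusted p = 2.1e-05), or 8.83-fold.

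AT4G13180, the dehydrogenase gene, had the smallest SE of the 5 in the fit. Healthy samples had signals of 112, 93.1 and 87.4 and fed samples of 464, 394 and 492. The groups were far apart for their spread, with log2 means of 6.60 ± 0.19 (SD, n = 3) in healthy and 8.81 ± 0.17 (SD, n = 3) in fed plants. The log2 fold change was 2.21 (SE 0.13, adjusted p = 3.2e-07), or 4.62-fold.

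AT2G04050, a MATE transporter gene, rose from a signal near the floor to one still below the array medians. Healthy samples gave 4.45, 1.35 and 1.91 and fed samples 10.2, 15.5 and 12.7. The groups did not overlap, and the log2 fold change was 2.48 (SE 0.66, adjusted p = 0.013). The call was lost without healthy sample 2, the lowest of them (2.11, adjusted p = 0.053), and with log2 of the signal plus 16, which damps changes of weak signals (0.63, adjusted p = 0.22).

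AT2G04070, the second MATE gene, had signals of 16.9, 9.04 and 7.73 in healthy and 15.0, 12.6 and 20.4 in fed plants. The groups overlapped, with healthy sample 1 above 2 of the 3 fed samples. The log2 fold change was 0.57 (SE 0.55, adjusted p = 0.50), with a 95% interval from -0.63 to 1.77. A rise as large as that of the dehydrogenase is outside this interval, and a rise of up to 1.77 is within it. For each of the 5 genes the exact permutation test of 3 against 3 samples (two-sided) cannot give a p below 0.1, which the 4 separated genes reached, and it gave 0.3 for AT2G04070.

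With Lima bean volatiles the same genes split by exposure time. After 48 h of volatiles all 5 genes were above their controls. After 24 h the dehydrogenase and the TolB-related gene were slightly above, and the methyltransferase and both transporters were below. At 48 h the groups did not overlap, with volatiles higher, for 3 of the 5 genes (8.82% of all probe sets), and lower for 0 (4.19%). At 24 h they did not overlap for any of the 5, higher for 2 (47.1% of all probe sets) and lower for 3 (5.33%). The members were chosen with these contrasts in view, and nothing is read from the counts.

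**Figure D2:**
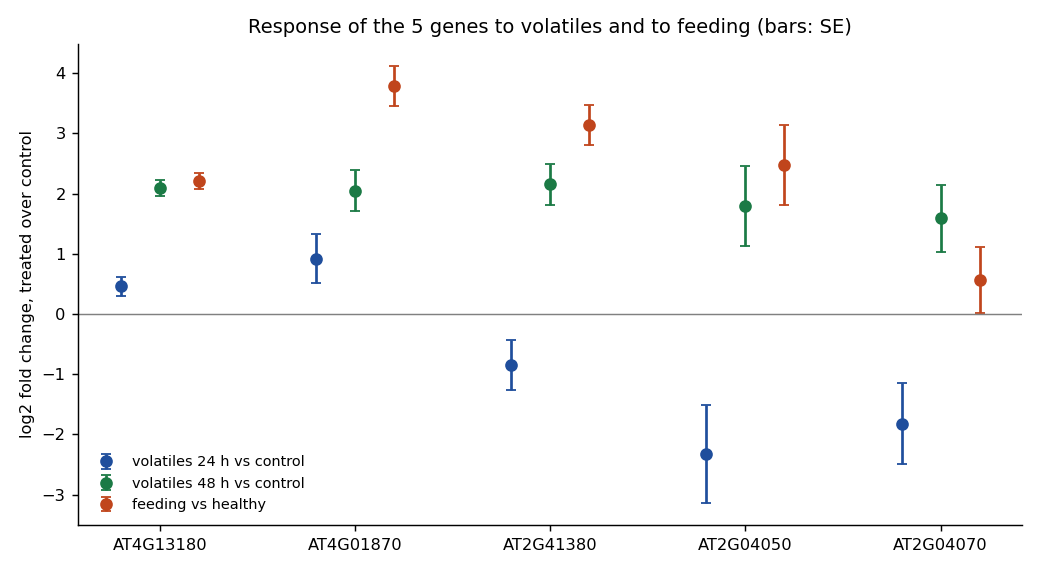
Log2 fold change of the 5 genes after 24 h and 48 h of volatiles and with feeding, with the SE of the fit as bars. The 48 h values lie between 1.59 and 2.16, the 24 h values between -2.33 and 0.92, and the feeding values between 0.57 and 3.79.

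AT4G13180 had nearly the same signal in all controls of the volatile experiment. It was 78.3 and 87.5 in the 24 h controls and 69.0, 67.9 and 65.5 in the 48 h controls. After volatiles it was 126 and 103 at 24 h and 254, 308 and 306 at 48 h. The volatile samples of 48 h were thus the highest, those of 24 h came next, and no volatile sample overlapped with its controls. The log2 change was 0.46 (SE 0.16) at 24 h, or 0.09 after quantile normalization and 0.15 after median scaling, where the shift of all probe sets is taken out. At 48 h it was 2.09 (SE 0.13), a 4.27-fold difference, beside 4.62-fold with feeding in a separate experiment with other timing.

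AT4G01870 varied more between replicates. Control signals were 72.4 and 98.7 at 24 h and 51.5, 73.4 and 89.2 at 48 h. Volatile signals were 256 and 100 at 24 h and 297, 410 and 197 at 48 h. One volatile sample of 24 h was as high as those of 48 h, and the other was hardly above its controls. The log2 change at 24 h was 0.92 (SE 0.41), and 0.24 without volatile sample 1. At 48 h it was 2.05 (SE 0.33), a 4.15-fold difference, smaller than the 13.8-fold value with feeding. These values come from separate experiments with other timing, and their difference was not tested.

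AT2G41380 lay on opposite sides of its controls at 24 h and 48 h. Control signals were 14.4 and 12.2 at 24 h and 10.7, 22.3 and 14.9 at 48 h. After volatiles they were 7.71 and 7.08 at 24 h, the lowest of the experiment, and 51.3, 115 and 53.6 at 48 h, the highest. The log2 change was -0.85 (SE 0.41) at 24 h and 2.16 (SE 0.34) at 48 h, and the 48 h mean of 6.09 ± 0.65 (SD, n = 3) stood beside 6.04 ± 0.18 (SD, n = 3) in fed plants. Volatile sample 2, with 115, was the highest single sample of this gene.

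AT2G04050 had its highest signals in the volatile experiment, controls included. The 24 h controls gave 121 and 84.6 and the 24 h volatile samples 27.2 and 14.9. The 48 h controls gave 112, 34.5 and 12.3 and the 48 h volatile samples 150, 155 and 85.3. At 24 h the volatile samples lay below both controls, and at 48 h they were above 2 of the 3 controls. The log2 change was -2.33 (SE 0.81) at 24 h, and 0.114% of all probe sets had a lower one. At 48 h it was 1.79 (SE 0.66), a value that was 2.60 without control sample 1 and 1.01 without control sample 3.

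AT2G04070 had the same order of groups in this experiment. The 24 h controls gave 45.1 and 29.5 and the 24 h volatile samples 11.8 and 8.99. The 48 h controls gave 63.7, 12.3 and 14.1 and the 48 h volatile samples 91.2, 73.4 and 44.7. Control sample 1 of 48 h was again above 1 of the volatile samples. The log2 change was -1.82 (SE 0.67) at 24 h and 1.59 (SE 0.55) at 48 h, where it was 2.35 without control sample 1, 1.16 without control sample 2 and 1.26 without control sample 3.

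Between 24 h and 48 h the volatile plants differed more than their controls did in these genes, which were chosen with the volatile response in view. The values are a description with no test. Over all probe sets the median difference was -0.07 between the volatile groups and 0.14 between the control groups. From 24 h to 48 h the log2 level of volatile plants was higher by 3.20 (SE 0.38) for AT2G41380, 2.70 (SE 0.61) for AT2G04070, 2.64 (SE 0.74) for AT2G04050, 1.34 (SE 0.15) for AT4G13180 and 0.85 (SE 0.37) for AT4G01870. Between the control groups the difference was 0.20 (SE 0.38) for AT2G41380, -0.71 (SE 0.61) for AT2G04070, -1.48 (SE 0.74) for AT2G04050, -0.30 (SE 0.15) for AT4G13180 and -0.28 (SE 0.37) for AT4G01870. For both transporters the 24 h controls stood above the 48 h controls in mean level.

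The levels also differed between the plants of the 2 experiments that had no leafminers. AT2G04050 had signals of 1.35 to 4.45 in healthy plants, close to the floor, and of 12.3 to 121 in the controls of the volatile experiment, so no size is given for its difference. On the log2 scale AT2G04070 was higher than in healthy plants by 1.79 (SE 0.61) in the 24 h controls and by 1.08 (SE 0.55) in the 48 h controls. These values were 1.01 and 0.73 for AT4G01870, 0.83 and 1.04 for AT2G41380, and -0.23 and -0.52 for AT4G13180. Healthy plants were thus the lowest group for AT2G04050, with every healthy sample below every other sample of the study. The jar, the Lima bean neighbors, the part of the plant sampled and the separate handling of the experiments cannot be told apart here. PYK10 moved with this difference as well, at 697 to 1365 in the volatile controls and 71.7 to 116 in healthy plants. RCA, the leaf marker, was lower in the volatile controls (2588.1 to 3088.3) than in healthy plants (4468.5 to 4799.7). The part of either marker was not tested.

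The order of the groups differed between the genes. By mean log2 level AT4G13180 ran from 48 h controls (6.08), 24 h controls (6.37), healthy (6.60) and 24 h volatiles (6.83) to 48 h volatiles (8.17) and fed plants (8.81). The 24 h volatile and healthy samples overlapped, as neighbors in this order. AT4G01870 had the same 2 groups on top, at 8.17 after 48 h of volatiles and 9.18 in fed plants, and healthy plants lowest at 5.39. AT2G41380 had the same groups on top (6.09 and 6.04, overlapping samples) and its lowest means in healthy (2.90) and 24 h volatile plants (2.88). The transporters were led by the 48 h volatile plants (6.97 for AT2G04050 and 6.06 for AT2G04070) followed by the 24 h controls (6.66 and 5.19), whose samples overlapped with them, and fed plants stood at 3.66 for AT2G04050 and 3.97 for AT2G04070.

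**Figure D3:**
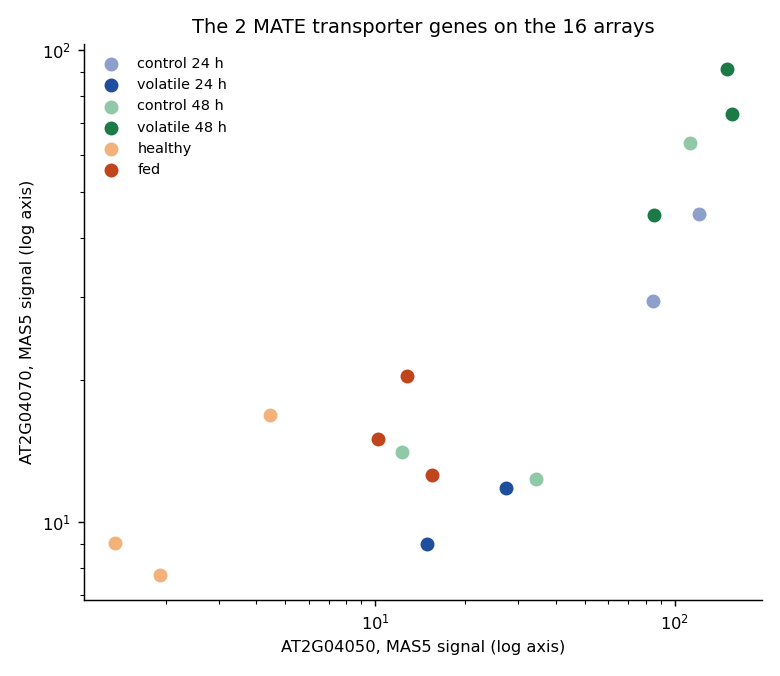
Signals of AT2G04050 and AT2G04070 on the 16 arrays, both axes logarithmic, colored by group. The 48 h volatile samples, the 24 h controls and control sample 1 of 48 h lie at the upper right, and the 3 healthy samples have the lowest AT2G04050 signals, 1.35 to 4.45.

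AT2G04050 and AT2G04070 had a Pearson correlation of log2 signals of 0.85 over the 16 arrays, 0.93 over the 10 volatile arrays, and 0.82 for the deviations of the 16 arrays from their group means. AT4G13180, AT4G01870 and AT2G41380 had correlations of 0.83 to 0.89 with each other over the 16 arrays, and 0.24 to 0.44 for the deviations. Between the transporters and the other genes the correlation over the 16 arrays was 0.11 to 0.47. This order depended on the arrays: over the 6 feeding arrays AT2G04050 had correlations of 0.89 to 0.93 with AT4G13180, AT4G01870 and AT2G41380, and 0.75 with AT2G04070, and over the 10 volatile arrays AT2G41380 had 0.65 with AT2G04070 and 0.64 with AT4G01870. These are descriptions with no test: arrays of a group share their treatment, and all genes of an array share its scale. The deviations that the transporters shared between replicates lay largely in the 48 h controls, the group with the widest spread. The SD on the log2 scale was 1.59 for AT2G04050 and 1.32 for AT2G04070 there (n = 3).

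Other genes had patterns close to these. Among 5977 probe sets with 1 gene and a mean at or above the median of all signals (4.59 on the log2 scale), the highest correlations over the 16 arrays with AT4G13180 were those of AT4G35360, AT5G53420 and AT3G23570, at 0.93 each. With AT4G01870 they were AT1G70810, AT1G70780 and AT4G33540 (0.95 each), and with AT2G41380 they were AT4G22530 (0.91), a gene of its own methyltransferase family, and AT2G31390 and AT5G51830 (0.90 each), both of the fructokinase family. AT2G41730 headed the list for both transporters, at 0.93 with AT2G04050 and 0.85 with AT2G04070. It responds to mitochondrial stress, and its probe set is of a type that can bind other transcripts. Next came AT4G02580 (0.91) and AT2G28790 (0.88) for AT2G04050, and AT1G43910 (0.84) and AT2G36730 (0.80) for AT2G04070. Over the 6 feeding arrays alone AT2G04070 had correlations of 0.23 with AT2G41730, -0.09 with AT1G43910 and 0.61 with AT2G36730. Over the same arrays AT2G04050 had 0.71 with AT2G41730.

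Among related genes, feeding raised several enzymes of the same kinds. The feeding counts of all lists stand beside 12.8% of all probe sets called up and 6.49% down. Their counts at 48 h of volatiles stand beside 0.558% up and 0.207% down, so nothing is read from a count of 0. Of the lists written from general knowledge, that of detoxification genes of the TGA and SCL14 type held 34 genes, and 8 had a named probe set. With feeding 5 of these 8 were called up and 0 down, with a median log2 change of 1.90 beside 0.14 over all probe sets. UGT73B5, a glycosyltransferase, rose by 2.60 (SE 0.39, adjusted p = 2.6e-04) and its relative UGT73B1 by 1.45 (SE 0.27, adjusted p = 0.0012). AT3G04000, a reductase of reactive aldehydes in the short-chain dehydrogenase family of AT4G13180, rose by 2.41 (SE 0.39, adjusted p = 5.3e-04), and the alkenal reductase AER rose by 2.15 (SE 0.17, adjusted p = 1.8e-06). At 48 h of volatiles 1 of these 8 was called, the glycosyltransferase gene UGT73C1 (2.43, SE 0.35, adjusted p = 0.012; 0.558% of all probe sets were called up and 0.207% down), with 48 h controls near the floor (mean log2 signal 0.54) and signals too weak for the naming rule. After quantile normalization 2 were called, and with the replicate number as a block 0 of all probe sets were. AER passed the adjusted p at 48 h but not the 2-fold threshold (0.82, SE 0.17, adjusted p = 0.041). All 8 genes of the list were above 0 at 48 h (57.2% of all probe sets), or 7 after quantile normalization. Their median was 1.18 beside 0.07. For 7 of the 8 every volatile sample was above every control (8.82% of all probe sets). For 0 of them every volatile sample was below (4.19%). Of all probe sets called at 48 h, 73.0% were up, and 58.3% after quantile normalization. At 24 h 4 of the 8 were above 0 (76.0% of all probe sets), with a median of 0.18 beside 0.31. Every volatile sample was then above every control for 4 of them (47.1%) and below for 2 (5.33%). UGT73C1, 1 of those 2, had a mean log2 signal of 2.63 in the 24 h controls, beside 2.97 after 48 h of volatiles.

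The wider reductase list held 24 genes, including AT3G04000 and AER, and 13 had a named probe set. Of these 13, feeding called 4 up and 1 down, beside 12.8% and 6.49% of all probe sets. AT1G60730, an aldo-keto reductase, rose by 1.55 (SE 0.35, adjusted p = 0.0051), and AT1G60690 of the same family fell by 1.24 (SE 0.20, adjusted p = 5.2e-04). After quantile normalization 3 were called up and 2 down. At 48 h of volatiles 0 of the 13 were called, and 1 was after quantile normalization. For AT1G60730 the 48 h difference was 1.37 (SE 0.35, adjusted p = 0.097), with all volatile samples above all controls.

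Relatives of the methyltransferase AT2G41380 were called up with feeding in 4 of 5 cases, beside 12.8% of all probe sets. AT4G22530 rose by 3.16 (SE 0.36, adjusted p = 3.4e-05), AT3G54150 by 2.99 (SE 0.36, adjusted p = 4.8e-05) and AT1G55450 by 2.07 (SE 0.30, adjusted p = 2.0e-04). AT3G61210 differed by 0.00 (SE 0.28, adjusted p = 1). After 48 h of volatiles 0 of the 5 were called, and AT4G22530 had the largest value, 1.03 (SE 0.36, adjusted p = 0.23). The TolB-related genes AT1G21670 (1.92, SE 0.26, adjusted p = 1.2e-04) and AT1G21680 (1.15, SE 0.25, adjusted p = 0.0041) rose with feeding, 2 of 2, and 1 of 2 after quantile normalization. Neither was called at 48 h, with values of -0.40 (SE 0.26) and 0.20 (SE 0.25).

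The list of other MATE transporters held 54 genes, and 35 of them had a named probe set, with 36 probe sets in all. Feeding called 9 up and 0 down, beside 12.8% and 6.49% of all probe sets, and after quantile normalization 7 up and 2 down. The median log2 change was 0.52, beside 0.14 over all probe sets. AT5G52050, an abscisic acid exporter, rose by 5.84 (SE 0.46, adjusted p = 1.9e-06), AT3G23550 by 5.09 (SE 0.36, adjusted p = 8.9e-07), AT1G66760 by 5.01 (SE 0.37, adjusted p = 1.4e-06) and AT1G61890 by 3.39 (SE 0.25, adjusted p = 1.2e-06). Beside these, AT2G04050 rose by 2.48, and the differences between the genes were not tested. At 48 h of volatiles 0 of the 36 were called, and 2 were after quantile normalization. AT5G52050, AT1G66760, AT3G23550 and AT1G61890 had 48 h values of -0.25, -0.25, 1.24 and 0.53.

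**Figure D4:**
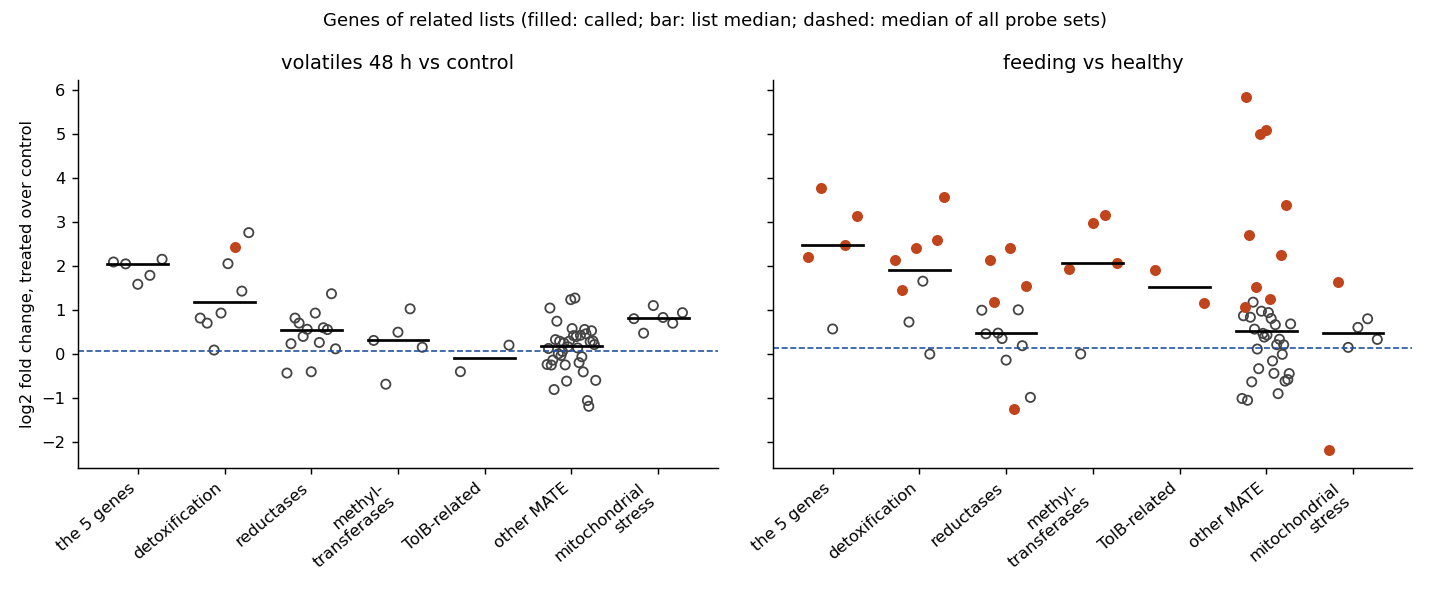
Log2 fold changes after 48 h of volatiles and with feeding for the 5 genes and for the related lists, 1 point per probe set, filled where called (the 5 genes were not tested at 48 h) and with a bar at each list's median. The dashed line is the median of all probe sets, 0.07 at 48 h and 0.14 with feeding. The 5 genes were picked with the volatile response in view, so their 48 h values are not to be weighed against the lists.

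Genes of the mitochondrial stress response, which share regulators of the NAC family, gave a mixed picture. The list held 14 genes, 6 with a named probe set. Feeding called 1 of these up and 1 down, beside 12.8% and 6.49% of all probe sets. AT5G43450, an oxygenase-like gene, rose with feeding by 1.64 (SE 0.27, adjusted p = 5.7e-04). AT5G51440, a mitochondrial small heat shock protein gene, fell by 2.18 (SE 0.39, adjusted p = 9.7e-04). At 48 h of volatiles 0 of the 6 were called, and their median log2 change was 0.82. At 24 h, where 0.0044% of all probe sets were called up and 0.0132% down, none of the 68 probe sets of the related lists was called in either direction. After median scaling 1 of the detoxification list was called down. By limma's unadjusted p, 2866 of all probe sets were under 0.05 at 24 h.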

How the data were processed

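RNA of 16 samples, all labelled as leaves, was hybridized to Affymetrix ATH1 arrays, 1 sample per array. The authors deposited 1 table of MAS5 signal intensity per probe set on a linear scale; the scaling target, and whether the GeneSpring step named in the methods had been applied, are not given in the sources used here. Scaling acts on whole arrays and can shift all changes of a comparison. Of 22810 probe sets, 64 controls were left out. The platform annotation gives 1 gene for 13513 of the tested probe sets, several for 503, and does not list 8730. RefSeq loci (TAIR10.1) matched 13436.

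Signals were set to at least 1 and log2 transformed without further scaling. The 6 group means were fitted over all 16 arrays with limma (version 3.58.1, R 4.3.3; moderated with a variance trend), with Benjamini-Hochberg adjusted p-values over the 22746 probe sets. Errors printed as SE come from this fit. The fit was tested on simulated data. Figures were drawn with matplotlib 3.10.9. The members and lists were chosen with earlier results of these data known. From each list at most 4 called genes were named, those with the largest change whose groups did not overlap, whose probe set has 1 gene and whose higher mean reached the median of all signals, besides the 3 probe sets most correlated with each member. UGT73C1, AT3G61210 and values of genes that were not called lie outside this rule and were chosen after their values were seen. Alternatives were array scaling, log2 of the signal plus 16, a filter on signal, the arrays in the fit, the variance trend, the fold threshold, a replicate block and leaving out each sample.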

Additional observations from a re-analysis of the deposited data

Results flagged for a closer look

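For 3 of the genes every volatile sample lay below every control at 24 h, as in 5.33% of all probe sets. Each 24 h group had 2 samples. At 48 h the mean of the volatile samples lay above that of the controls for each of these genes. The log2 change of the methyltransferase AT2G41380 was -0.85 at 24 h and 2.16 at 48 h. That of the transporter AT2G04050 was -2.33 at 24 h and 1.79 at 48 h, and that of AT2G04070 was -1.82 at 24 h and 1.59 at 48 h. All 24 h signals of AT2G41380 were below the medians of their arrays, and its 24 h change was -0.33 with log2 of the signal plus 16. At 48 h the samples of both transporters overlapped with their controls. The difference between the times was not tested, since the genes were chosen with these contrasts in view.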

How the results depend on the processing

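The number of the 5 genes called with feeding was 4, and 3 or 4 under every alternative run, with 3 to 4 when 1 sample was left out. The gene lost each time was AT2G04050. Its log2 change was 0.63 (adjusted p = 0.22) with log2 of the signal plus 16, and 2.11 to 2.97 when 1 sample was left out, with the call lost without healthy sample 2 (adjusted p = 0.053). The replicate numbers gave no clear pairing of the feeding samples, with correlations of deviations of 0.02 to 0.09. Fed samples 1 and 3, but not 2, correlated best with the healthy sample of their own number. With 3 samples per group this is too little to tell whether they were paired. With only the feeding arrays in the fit AT2G04050 was at 2.48 (adjusted p = 0.021), and all probe sets gave 2624 calls up and 1267 down. The adjusted p was then 8.7e-04 for AT4G13180, 2.4e-04 for AT4G01870 and 0.0015 for AT2G41380. With the replicate number as a block on the same arrays AT2G04050 was at 2.48 (adjusted p = 0.081). In that fit 3 of the 5 genes were called, and there were 2096 calls up and 856 down. The adjusted p of these 3 was 0.015 for AT4G13180, 0.013 for AT4G01870 and 0.017 for AT2G41380.

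At 24 h AT4G13180 was at 0.09 after quantile normalization and 0.15 after median scaling. AT2G41380 was then at -1.05 and -1.16, and at -0.33 with log2 of the signal plus 16, where AT2G04050 was at -1.68 and AT2G04070 at -1.0. At 48 h AT4G13180 was at 1.87 and AT2G41380 at 1.43 on that scale. Leaving out 1 sample gave AT4G01870 0.24 to 1.60 at 24 h, AT2G04050 1.01 to 2.60 at 48 h and AT2G04070 1.16 to 2.35 at 48 h. No sign changed. Over all probe sets, calls at 48 h were 127 up and 47 down, 6 and 1 when only the arrays of the comparison entered the fit, 0 and 0 with the block on those arrays, and 183 and 131 after quantile normalization. The causes were not tested. The search for promoter motifs and the lists by annotation words were not run.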
